A study of Mus musculus with 12 samples.

Results

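Immunoglobulin variable (V) genes encode the larger part of the antigen-binding domain of antibodies and B cell receptors. The mouse annotation holds 216 such genes with an Ighv, Igkv or Iglv symbol, and the 150 genes described here are those with 120 or more counts summed over the 12 libraries: 64 heavy-chain genes (Ighv) of 113, 83 kappa light-chain genes (Igkv) of 100 and all 3 lambda light-chain genes (Iglv). They are 150 of 55421 genes in the count table. The 150 genes carried 531963 counts and the 66 V genes under the threshold carried 2536, so that 99.5% of the V counts are covered. Because total counts chose these genes, their totals are a description only. Just inside the threshold were Igkv11-125 with 127 counts, Ighv3-5 with 129 and Ighv12-3 with 130, and just outside were Ighv1-4 with 119, Ighv9-2 with 112 and Igkv4-54 with 112.

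In a developing B cell, 1 V gene of the heavy-chain locus is joined to a D and a J segment, and 1 V gene of a light-chain locus is joined to a J segment, before the gene is expressed at a high level with a constant gene. A B cell and all its daughters therefore carry the same rearranged V genes, and plasma cells, which secrete antibody, hold very large amounts of that RNA. V genes are grouped into families by sequence similarity. The first number of the symbol is taken here as the family, so that each lambda gene is counted by itself. Endothelial cells are not known to rearrange V genes.

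The RNA came from bone marrow cells sorted as endothelial (CD31hi SCA-1+, negative for CD45, CD41 and TER-119, after depletion of cells with lymphoid and myeloid surface markers) from 12 mice aged 20 weeks, with 3 mice per group and 1 library per mouse. The control group consisted of untreated C57BL/6J mice, the hypertension group of C57BL/6J mice given angiotensin II for 8 weeks by minipump, and the MI group of C57BL/6J mice with a permanent coronary ligation, sampled on day 2 by the labels and on day 4 by the study's text. The atherosclerosis group consisted of Apoe-/- mice (Apoe tm1Unc, lacking apolipoprotein E in all cells) on a western diet for 10 weeks, so genotype and diet cannot be told apart. The libraries keep the numbers 2, 3 and 4 of the labels. Total counts per library ranged from 17007088 to 25136936, and the V genes held 0.103% to 0.410% of them, with at least 19955 V counts in a library. Apoe checked the labels: it stood at 9.78, 7.28 and 14.8 CPM (counts per 1000000 of the library) in atherosclerosis and between 451 and 1503 CPM in the other 9 libraries. All 12 endothelial genes of the marker list were measured, with a sum of 123 to 246 CPM per library, and the defining gene Cdh5 (VE-cadherin) was low at 2.00 to 4.19 CPM. Immunoglobulin constant genes summed to 6069 to 21197 CPM in the same libraries. Immunoglobulin RNA was thus present in every library of cells sorted as CD45-, and which cells it came from was not tested. In bulk samples, moreover, fewer cells of a type and less RNA per cell cannot be told apart.

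The results below turn first on 2 genes whose products pair in the classical phosphatidylcholine receptor of B-1 cells, a self-renewing B cell subset that makes natural antibodies. Their germline V exon sequences are shown because a read of 50 bases can be placed on a V gene only where it differs from its relatives. The sequences, of GENCODE M21 transcripts on GRCm38, cover chr12:114048241-114048540 on the minus strand for Ighv11-2 and chr6:67896345-67896642 on the plus strand for Igkv14-126, both in the V coding exon. The capitals mark the last in-frame cysteine codon, after which the V exon contributes 8 more bases in Ighv11-2 and 23 in Igkv14-126 to the antigen-contacting loop that the junction completes.
Ighv11-2: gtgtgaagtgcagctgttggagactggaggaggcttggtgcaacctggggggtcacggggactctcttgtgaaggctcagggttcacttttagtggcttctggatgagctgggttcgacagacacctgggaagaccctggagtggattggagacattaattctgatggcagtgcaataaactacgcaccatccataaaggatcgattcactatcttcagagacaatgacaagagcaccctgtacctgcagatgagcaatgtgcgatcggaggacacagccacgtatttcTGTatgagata
Igkv14-126: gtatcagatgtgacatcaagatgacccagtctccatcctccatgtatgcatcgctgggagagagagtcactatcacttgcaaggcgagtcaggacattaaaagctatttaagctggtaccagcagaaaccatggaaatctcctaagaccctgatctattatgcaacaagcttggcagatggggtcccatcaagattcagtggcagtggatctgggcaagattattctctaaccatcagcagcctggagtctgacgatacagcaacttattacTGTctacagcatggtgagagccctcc

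The 2 most used lambda genes are close relatives, and their V exons are shown with the differing bases in capitals (minus strand, Iglv1 at chr16:19085017-19085316 and Iglv2 at chr16:19260401-19260700). Over the V exon of 305 bases they differed at 9 positions, an identity of 97.0%, and 8 of the 9 lie in the 300 bases printed.
Iglv1: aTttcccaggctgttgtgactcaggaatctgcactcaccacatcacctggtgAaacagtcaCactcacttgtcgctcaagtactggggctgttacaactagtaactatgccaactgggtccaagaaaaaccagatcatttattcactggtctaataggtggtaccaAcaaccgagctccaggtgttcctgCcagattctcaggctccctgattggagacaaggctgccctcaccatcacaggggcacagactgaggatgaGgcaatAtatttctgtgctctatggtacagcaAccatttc
Iglv2: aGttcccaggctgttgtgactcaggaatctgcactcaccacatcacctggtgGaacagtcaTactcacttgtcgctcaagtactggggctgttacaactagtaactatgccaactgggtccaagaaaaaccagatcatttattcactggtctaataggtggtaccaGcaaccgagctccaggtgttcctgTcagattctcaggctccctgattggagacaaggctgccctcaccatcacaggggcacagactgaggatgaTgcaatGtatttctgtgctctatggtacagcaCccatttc
Of the 50-base windows of the annotated transcripts, 77.8% of those of Iglv1 and 78.9% of those of Iglv2 occurred in no other gene's transcript on either strand. The share was 61.4% for Ighv11-2, whose windows were shared with Ighv11-1, and 100% for Igkv14-126. Over the 150 genes the median was 78.8%, 18 genes lay below 50%, the lowest was Igkv4-59 with 25.7%, and 26 genes had only windows of their own. Counts of genes with few windows of their own are therefore uncertain.

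The last 75 bases of the V exon follow for 6 genes that took the largest part of the heavy-chain, the light-chain or all V counts in single libraries, again with the cysteine codon in capitals. They lie on GRCm38 at chr12:113948282-113948356 (Ighv4-1, minus strand), chr12:114391712-114391786 (Ighv6-3, minus), chr6:70406469-70406543 (Igkv6-15, minus), chr6:70314895-70314969 (Igkv8-21, minus), chr6:68736297-68736371 (Igkv19-93, minus) and chr6:70698993-70699067 (Igkv3-2, plus).
Ighv4-1: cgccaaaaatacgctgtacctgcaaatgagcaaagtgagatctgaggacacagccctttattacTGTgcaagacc
Ighv6-3: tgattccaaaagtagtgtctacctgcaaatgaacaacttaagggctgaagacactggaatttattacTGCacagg
Igkv6-15: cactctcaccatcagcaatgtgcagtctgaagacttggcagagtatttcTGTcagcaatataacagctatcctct
Igkv8-21: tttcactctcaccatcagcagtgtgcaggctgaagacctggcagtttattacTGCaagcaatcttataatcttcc
Igkv19-93: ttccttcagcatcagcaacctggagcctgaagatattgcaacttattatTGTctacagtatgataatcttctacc
Igkv3-2: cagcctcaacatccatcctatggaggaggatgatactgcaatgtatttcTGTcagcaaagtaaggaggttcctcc

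V gene counts were highest in atherosclerosis and in 2 of the 3 MI libraries, and the difference came with the kappa genes. Relative to total counts, the V genes summed to 1736, 1781 and 1101 CPM in controls 2, 3 and 4, to 2001, 1646 and 1027 in hypertension, to 2216, 3735 and 2961 in atherosclerosis and to 1261, 4098 and 3689 in MI. All 3 atherosclerosis libraries lay above all controls, hypertension overlapped with controls, and in MI library 2 lay among the controls while libraries 3 and 4 lay above them. The group means were 1539 ± 380 in controls, 1558 ± 493 in hypertension, 2971 ± 760 in atherosclerosis and 3016 ± 1533 in MI (SD, n = 3 each, here and below). These sums were not tested, because the genes were selected with their values known.

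**Figure D1:**
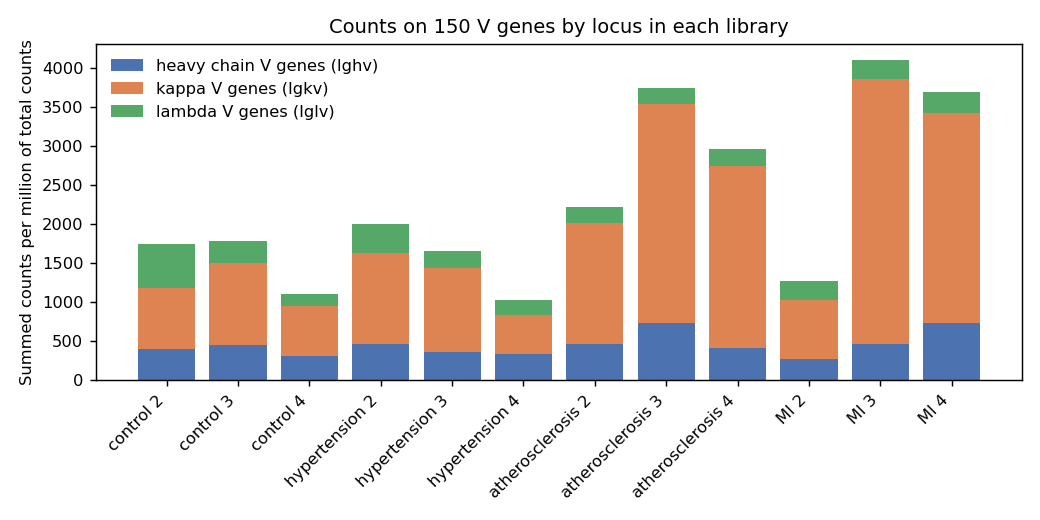
Stacked bars give the summed CPM, relative to total counts (y axis), of the heavy-chain, kappa and lambda V genes in each of the 12 libraries (x axis). The kappa part is the tallest in every library and is above every control in the 3 atherosclerosis libraries, in MI 3 and 4 and, by a small margin, in hypertension 2 and 3, while the lambda part is tallest in control 2.

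The 3 loci differed in this. Kappa V genes summed to 823 ± 217 CPM in controls, 916 ± 365 in hypertension, 2231 ± 636 in atherosclerosis, where they exceeded every control, and 2276 ± 1371 in MI. Heavy-chain V genes summed to 384 ± 66.8 CPM in controls, 381 ± 66.5 in hypertension, 534 ± 173 in atherosclerosis and 488 ± 231 in MI, and each disease group overlapped with the controls. Lambda V genes summed to 332 ± 207, 261 ± 97.1, 206 ± 10.99 and 252 ± 18.6 CPM in the same order and overlapped throughout.

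The kappa share of light-chain V counts was 58.2%, 79.2% and 79.998% in controls and 75.9%, 83.5% and 71.8% in hypertension. It was 88.3%, 93.5% and 91.5% in atherosclerosis and 75.7%, 93.3% and 90.8% in MI. Every atherosclerosis library lay above every control, and MI again split, with library 2 within the control range. Light-chain V counts per heavy-chain V count averaged 2.97 ± 0.45 in controls, 3.04 ± 0.84 in hypertension, 4.72 ± 1.35 in atherosclerosis and 5.20 ± 2.38 in MI, with no overlap between controls and either of the last 2 groups.

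Of the constant genes, which the V genes are joined to in the transcript, the kappa and IgM genes were also above controls in atherosclerosis, and others were not. Igkc, the kappa constant gene, was at 3116, 3871 and 2178 CPM in controls and at 5165, 12391 and 7119 CPM in atherosclerosis, with 3206, 12254 and 9034 CPM in MI. Ighm, the constant gene of IgM, was at 2073, 2977 and 1723 CPM in controls and at 4752, 8723 and 4425 CPM in atherosclerosis, with 1405, 5936 and 7203 CPM in MI. For both genes, all atherosclerosis libraries exceeded all controls, and MI overlapped with controls, but neither passed edgeR's quasi-likelihood test after Benjamini-Hochberg adjustment. Igha, the constant gene of IgA, ran the other way in 2 libraries, with 2588, 2109 and 1326 CPM in controls and 1600, 389 and 225 CPM in atherosclerosis. Of the 11 constant genes tested, the log2 fold change in atherosclerosis was above 0 for 6 and below 0 for 5, with a median of 0.02. The IgE gene Ighe was near 0, between 0 and 1.33 CPM. The lambda constant genes Iglc1 and Iglc2 were highest in control 2, at 699 and 436 CPM, where Iglv1 and Iglv2 were highest too.

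Markers of antibody-producing and B cells moved with these sums in part, and their part in the V differences was not tested. The 10 plasma cell genes, most of whose sum is Jchain (the joining chain of IgM and IgA polymers, 349 to 1530 CPM) and Xbp1, summed to 1137 to 1467 CPM in controls, 1686 to 1987 in atherosclerosis and 1031 to 2354 in MI. Mzb1 of the same list, a chaperone of antibody secretion, was low at 0.50 to 2.34 CPM. The 12 B cell genes summed to 516 to 649 CPM in controls, 488 to 1217 in atherosclerosis and 212 to 475 in MI, below every control in MI. The 10 genes of B cell precursors summed to 185 to 288 CPM in controls, 161 to 202 in atherosclerosis and 86.5 to 173 in MI. None of the genes of these 3 lists passed the test in any comparison.

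The spread of V counts over genes was described by the effective number of V genes, the exponential of the Shannon entropy of the shares, which equals the number of genes if all were used equally. It was 37.7, 47.3 and 44.5 in controls, 41.6, 41.3 and 37.3 in hypertension, 29.0, 27.0 and 36.8 in atherosclerosis and 56.5, 30.6 and 21.6 in MI. By this measure the V counts of all 3 atherosclerosis libraries were more concentrated than those of any control. The margin was small for atherosclerosis 4, at 36.8 against 37.7 in control 2. MI held both the most even and the most concentrated library. The number of genes that reached 50% of V counts was 5 to 7 in atherosclerosis and 7 to 9 in controls, with overlap. The share of the leading gene, 11.7% to 19.5% against 13.0% to 19.9%, overlapped too. Among the kappa genes alone the effective number was 33.1 ± 3.45 in controls and 19.1 ± 2.19 in atherosclerosis, without overlap. Among heavy-chain genes it was 21.2 ± 1.89 in controls and 16.4 ± 12.1 in atherosclerosis, with overlap, and 15.0 ± 3.52 in hypertension, below every control.

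**Figure D2:**
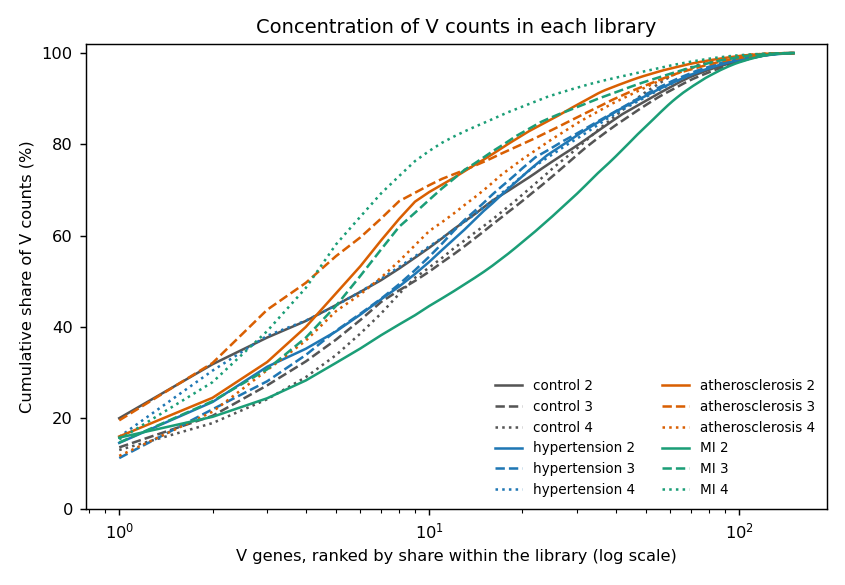
Each line adds up the V genes of 1 library from the most to the least used (x axis, rank on a log scale) against their cumulative share of V counts in percent (y axis), coloured by group. Over most ranks the line of MI 4 (effective number 21.6) lies highest and that of MI 2 (56.5) lowest, and in the middle ranks the 3 atherosclerosis lines lie above the 3 control lines.

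The leading V gene was the same in all control and hypertension libraries and differed between mice in atherosclerosis and MI. Iglv1 was the most used V gene in all 3 controls, with 19.9%, 13.5% and 13.0% of V counts, in all 3 hypertension libraries, with 14.5%, 11.2% and 15.8%, and in MI 2, with 15.7%. In atherosclerosis the leading genes were Igkv6-15 in library 2, Igkv8-21 in library 3 and Igkv19-93 in library 4. Igkv6-15 took 15.9% there (95% Wilson interval 15.6% to 16.2%, which covers counting error only, as do all such intervals here). Igkv8-21 took 19.5% of V counts in atherosclerosis 3 (19.2% to 19.8%) and between 0.06% and 1.86% in the other 11 libraries. Igkv19-93 took 11.7% in atherosclerosis 4 and 14.6% in MI 3, where it also led, and Igkv3-2 led MI 4 with 15.3%.

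Heavy-chain use was more concentrated still in single mice. Ighv4-1 made up 59.6% of the heavy-chain V counts in atherosclerosis 3 (58.7% to 60.4%), 40.7% in atherosclerosis 2 and 44.8% in hypertension 4, and was the most used heavy-chain gene of controls 3 and 4 with 21.0% and 18.4%. Ighv6-3 made up 63.1% in MI 4 (62.3% to 64.0%) and led hypertension 3 with 24.6%. Ighv1-9 led hypertension 2 with 33.8%, MI 3 with 17.5% and atherosclerosis 4 with 11.6%. The leading heavy-chain gene of control 2 was Ighv9-4 with 16.1%, and that of MI 2 was Ighv11-2 with 7.24%. No heavy-chain gene led all 3 libraries of any group.

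Iglv1 had the highest mean share over the 12 libraries, 10.7%. It took 15.5% ± 3.87 in controls, 13.9% ± 2.40 in hypertension, 5.06% ± 1.97 in atherosclerosis, below every control, and 8.58% ± 6.15 in MI. On the CPM scale its levels overlapped: 353, 238 and 139 CPM in controls, 288, 184 and 158 in hypertension, 158, 164 and 105 in atherosclerosis and 212, 212 and 186 in MI. Its share was thus lower in atherosclerosis than in every control, while its level lay below the range of the controls in atherosclerosis 4 only. Iglv2 stood at 209 CPM in control 2 and between 8.38 and 97.3 CPM in the other 11 libraries, and Iglv3, the rarest lambda gene, between 2.10 and 14.3 CPM.

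The next most used genes varied between mice of a group. Igkv6-15 (mean share 6.19%) had 51.6, 83.4 and 51.2 CPM in controls, 343, 235 and 87.8 in atherosclerosis and 54.99, 388 and 345 in MI. Igkv12-46 (3.87%) had 11.5, 21.0 and 1.67 CPM in controls, 178, 54.0 and 5.11 in hypertension, 169, 151 and 182 in atherosclerosis and 39.4, 296 and 138 in MI. Igkv12-46 was above every control in all atherosclerosis and all MI libraries, while Igkv6-15 was so in atherosclerosis only. Igkv19-93 (4.46%), Ighv4-1 (4.42%), Igkv6-23 (4.39%) and Igkv8-30 (4.11%) ranked between these genes. Ighv4-1 ranged from 0.28% of V counts in MI 4 to 14.5% in hypertension 4, and Igkv12-44 (2.69%) from 0.21% in atherosclerosis 2 to 10.7% in hypertension 3. Iglv2 (2.87%) and Igkv14-126 (2.80%) complete the 10 genes with the highest mean share.

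By family, the largest shares were those of Igkv6 (13.5% over the 12 libraries), Iglv1 (10.7%), Igkv4 (9.87%), Igkv8 (9.85%) and Igkv12 (8.59%). The largest heavy-chain family by gene number, Ighv1, had 30 of its 53 annotated genes among those described and took 5.31% of V counts, between 3.12% and 10.9%. By the first number of the symbol there were 34 families, with 13 heavy-chain, 18 kappa and 3 lambda families. Each lambda family is a single gene under this rule, although the V exons of Iglv1 and Iglv2 are 97.0% identical. Family shares sum to the whole, so that a higher share of one lowers the rest.

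**Figure D3:**
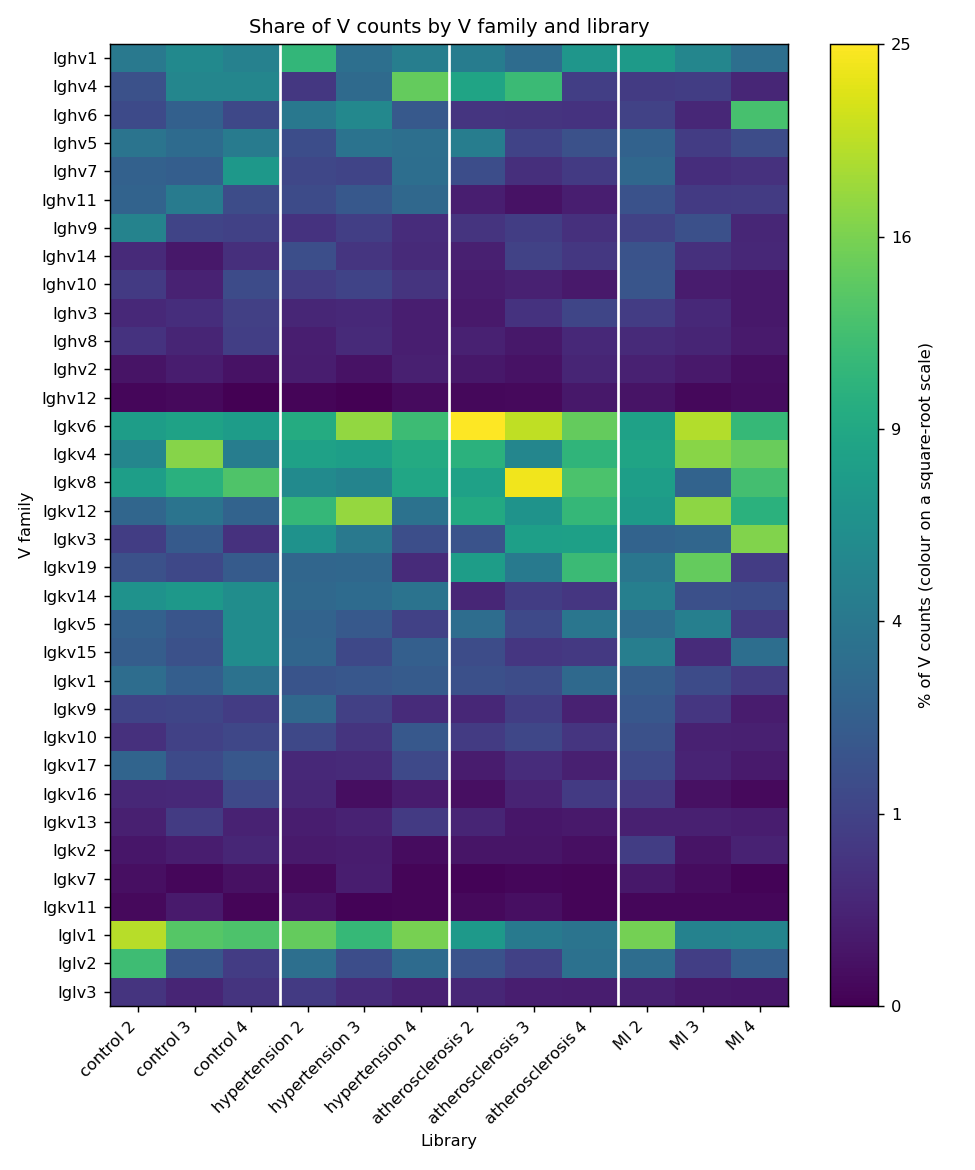
Colour gives the share of V counts in percent (square-root colour scale) of each of the 34 V families (y axis, by locus and mean share) in each library (x axis, groups separated by white lines). Igkv6 is brighter in atherosclerosis than in controls, Igkv14 is darker in all 3 disease groups, and single bright cells such as Igkv8 in atherosclerosis 3 (23.9%) belong to 1 mouse.

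Kappa families lay on both sides of the controls in atherosclerosis. Igkv6 took 7.70%, 8.34% and 7.62% of V counts in controls and 25.01%, 20.4% and 14.6% in atherosclerosis. Igkv12 took 2.75%, 3.73% and 2.57% in controls and 9.21%, 6.61% and 11.03% in atherosclerosis. Igkv19, which has a single gene, took 1.55%, 1.19% and 2.09% in controls and 7.70%, 4.14% and 11.7% in atherosclerosis. These were the 3 families above all controls there, and 10 families lay below them: Iglv1, Igkv14, Ighv6, Igkv15, Ighv7, Ighv11, Ighv9, Igkv17, Ighv10 and Igkv2. Among all genes tested, 5.06% lay above all controls and 4.45% below them in this comparison, on the CPM scale. The 2 scales are not alike, because a family share also falls when other V genes rise. Iglv1, below all controls by share, overlapped with them in CPM.

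In hypertension Igkv6 was the 1 family above all controls, with 9.50%, 17.6% and 11.7%, and 6 families were below them: Igkv14, Igkv1, Ighv9, Igkv17, Ighv3 and Igkv16, where 9.02% and 7.81% of all genes did so. In MI, Igkv12 with 7.39%, 17.2% and 10.2% and Igkv3 with 2.56%, 2.74% and 16.4% were above all controls, and 6 families were below them: Ighv4, Igkv14, Ighv5, Igkv1, Igkv17 and Iglv3, where 4.27% and 4.59% of all genes did so. Igkv14 and Igkv17 were thus lower than in every control in each disease group, which all share the same 3 controls. Igkv14 took 6.53% ± 0.58 in controls, 3.18% ± 0.41 in hypertension, 0.58% ± 0.28 in atherosclerosis and 2.51% ± 1.83 in MI. The family shares were not tested, and the percentages of all genes beside them are again on the CPM scale.

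The test of single genes was edgeR's quasi-likelihood test fitted to 15999 genes in all 12 libraries, with Benjamini-Hochberg adjustment over all of them. Of the 150 V genes 147 passed the low-count filter, and the 3 others, Igkv4-69 (777 counts), Igkv5-37 (383) and Igkv8-18 (199), had 76.7%, 89.8% and 85.9% of their counts in 1 library. In atherosclerosis 2 of the 147 genes passed an adjusted p of 0.05, both lower, against 0.144% of all genes tested and 0.0375% of them in this direction. In hypertension and in MI 0 of the 147 passed, as did 0.0% of all genes, and DESeq2 called 0 and 1 of the V genes there, the latter Igkv8-27. At an unadjusted p under 0.05 the numbers were 21 V genes in hypertension, 44 in atherosclerosis and 32 in MI, against 3.71%, 5.97% and 2.8% of all genes.

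The 2 genes were Ighv11-2 and Igkv14-126, the heavy and the light chain gene of the phosphatidylcholine receptor whose sequences are given above. Ighv11-2 was at 44.8, 76.0 and 14.3 CPM in controls, 25.5, 31.4 and 28.3 in hypertension, 3.87, 2.23 and 5.14 in atherosclerosis and 21.2, 31.1 and 27.3 in MI. The atherosclerosis libraries lay below all 9 others, which overlapped among groups. The log2 fold change in atherosclerosis was -3.58 ± 0.49 (SE) with an adjusted p of 0.0148 by the quasi-likelihood test. It was called in 9 of 12 fits that left out 1 library, with an adjusted p of 0.0650 without control 2, 0.0621 without control 3 and 0.0671 without atherosclerosis 3.

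Igkv14-126 was at 104, 117 and 51.7 CPM in controls, 46.4, 46.8 and 33.2 in hypertension, 4.18, 23.8 and 12.3 in atherosclerosis and 52.9, 55.7 and 48.9 in MI. Again the 3 atherosclerosis libraries were the lowest of the 12, and the hypertension libraries lay below all controls. The log2 fold change in atherosclerosis was -2.76 ± 0.47 with an adjusted p of 0.0411 by the quasi-likelihood test. This call was less firm: of 12 fits that left out 1 library it was kept in 3, those without control 4, atherosclerosis 2 or atherosclerosis 3. Without any of the other 9 libraries the adjusted p was between 0.0579 and 0.227, the highest without control 3, and over the 12 fits the log2 fold change lay between -3.46 and -2.32.

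**Figure D4:**
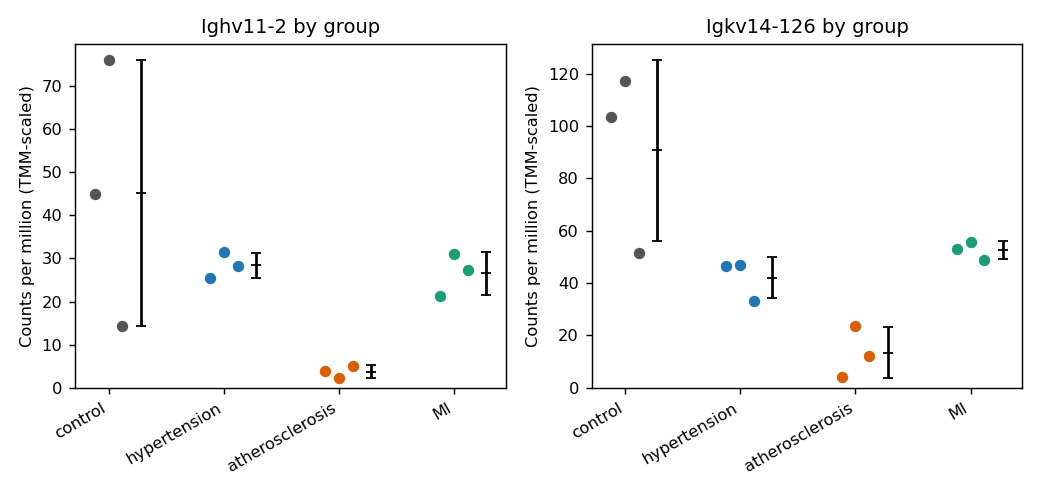
Points give the CPM (y axis, from 0) of Ighv11-2 (left) and Igkv14-126 (right) in each library by group (x axis), and the bar beside them the group mean with its SD (n = 3). In both panels the 3 atherosclerosis libraries are the lowest of the 12.

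Other heavy and light chain genes that pair in receptors of B-1 cells and natural antibodies gave no call. Ighv12-3, which also makes phosphatidylcholine receptors with Igkv4-91, had 0 to 6 counts in the control and hypertension libraries. In MI 2, 3 and 4 it had 16, 9 and 19 counts. In CPM it was at 0 to 0.32 in controls and 0.22, 0.70 and 2.75 in atherosclerosis. Igkv4-91 was at 5.27, 23.5 and 0.50 CPM in controls, 32.1, 55.2 and 46.8 in atherosclerosis and 12.7, 248 and 12.4 in MI, so that 1 MI library held 53.9% of all its counts. Ighv7-1 of the phosphorylcholine-binding T15 antibody was at 11.9, 11.3 and 24.2 CPM in controls and 6.18, 4.82 and 16.5 in atherosclerosis, and its partner Igkv7-33 was between 0.04 and 2.63 CPM in all libraries. None of these 4 genes passed the test in any comparison.

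The 6 genes together took 9.41%, 13.0% and 8.498% of V counts in controls, 4.93%, 5.65% and 7.49% in hypertension, 2.17%, 2.19% and 2.97% in atherosclerosis and 8.09%, 8.05% and 2.60% in MI. Ighv11-2 and Igkv14-126 made up most of this in each control, and Igkv4-91 most of it in MI 3 and in each atherosclerosis library. By this share, all disease libraries lay below all controls, by the least margin in MI. A share also falls when other V genes rise. The V genes summed to 4098 CPM in MI 3 and to 1736, 1781 and 1101 CPM in the controls. The lower share in MI 3 therefore does not by itself show a lower level. In hypertension the V genes summed to 2001, 1646 and 1027 CPM and overlapped with the controls. The share alone gives no level there either. Summed levels of the 6 genes were not compared. The 6 other genes listed as B-1 cell markers summed to 455 to 582 CPM in controls and 403 to 533 CPM in atherosclerosis and overlapped, with Cd5 at 0.74 to 1.68 CPM in controls and 1.60 to 2.90 CPM in atherosclerosis. Most of that sum was Cd9, which other cell types express too. Of these 6 marker genes, 5 had a log2 fold change above 0 in atherosclerosis, and Cd9 was below 0. The median of the 6 was 0.58. Ctla4 and Plscr1 were above every control in all atherosclerosis libraries, while Cd5, Zbtb32, Bhlhe41 and Cd9 overlapped with controls. None of the 6 marker genes passed the test in any comparison.

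The genes with the smallest p after these did not pass the adjustment. Igkv3-4 had 2.80, 16.2 and 3.22 CPM in controls and 13.0, 232 and 181 in atherosclerosis, with a log2 fold change of 4.27 ± 0.98 (adjusted p = 0.199, quasi-likelihood test). Igkv8-27 had 61.3, 35.4 and 46.0 CPM in controls, 15.6, 9.20 and 21.8 in hypertension, 9.78, 37.1 and 45.3 in atherosclerosis and 6.79, 8.15 and 10.5 in MI. It was below every control in both hypertension and MI, by log2 fold changes of -1.61 ± 0.45 (adjusted p = 0.951) and -2.49 ± 0.47 (adjusted p = 1.00, both by the quasi-likelihood test). Other settings called it in MI at a like fold: its adjusted p there was 0.00301 by edgeR's likelihood-ratio test, 0.000325 by DESeq2, 0.0200 by the quasi-likelihood test on the 2 groups alone and 0.0234 by that test without atherosclerosis 2. With no filter beyond 1 count it was also called, and under the 15 other settings it was not (adjusted p = 0.922 to 1.00, quasi-likelihood test).

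Igkv14-100 of the Igkv14 family had 4.48, 5.09 and 8.495 CPM in controls and 0.77, 0.83 and 2.00 in hypertension, and was also below all controls in atherosclerosis and MI. Igkv12-38 reached 9.33 CPM in hypertension 3 but had 0 counts in hypertension 4, and its log2 fold change of 4.89 ± 1.45 rests on 2 libraries. In MI, Ighv1-80 had 5.80, 46.8 and 19.0 CPM against 5.05, 2.82 and 0.19 in controls (log2 fold change 3.19 ± 0.84). Igkv3-2 had 4.97, 17.5 and 556 CPM against 4.71, 3.84 and 0.35 in controls, and its log2 fold change of 6.06 ± 1.56 is set mostly by MI 4. The D-proximal gene Ighv5-2 (VH81X), the heavy-chain gene most rearranged in early B cell development, had 12.025 CPM in control 4 and 0.12 to 1.00 CPM in the other 11 libraries.

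Over the 147 genes tested, the median log2 fold change was -0.29 in hypertension, 0.32 in atherosclerosis and 0.34 in MI, beside -0.01, 0.01 and 0.00 over all genes. The median size of the log2 fold change, regardless of direction, was 0.86, 1.36 and 1.03, beside 0.19, 0.19 and 0.16. In atherosclerosis 16 genes were higher in every library than in every control and 10 were lower, 10.9% and 6.80% of the 147, while 5.06% and 4.45% of all genes were. In MI 10 were higher and 6 lower, 6.80% and 4.08% against 4.27% and 4.59% of all genes. In hypertension 4 were higher and 9 lower, 2.72% and 6.12% against 9.02% and 7.81% of all genes.

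The 16 genes above all controls in atherosclerosis, named here after their values were seen, comprised 10 kappa genes, 4 of them of the Igkv6 family (Igkv6-15, Igkv6-17, Igkv6-23 and Igkv6-32), and 6 heavy-chain genes, 5 of them of the Ighv1 family. Their log2 fold changes lay between 1.79 (Ighv2-9-1) and 3.95 (Igkv12-38), and none passed the adjustment. The 10 below all controls comprised 6 heavy-chain genes and 4 kappa genes, with Ighv11-2 and Igkv14-126 as the called ones. Among them Ighv7-4 had 0 counts in all 3 atherosclerosis libraries and 0.04 to 1.07 CPM in controls, so no fold is given for it, and the other 9 had log2 fold changes between -0.93 (Ighv1-22) and -3.58 (Ighv11-2). With the same 3 controls in each comparison, Igkv14-100 and Ighv7-3 were below all controls in hypertension, atherosclerosis and MI. The log2 fold changes were -2.33, -2.91 and -2.002 for Igkv14-100 and -1.49, -1.40 and -1.49 for Ighv7-3. Igkv3-2 was above all controls in each group, with 3.36, 2.98 and 6.06.

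V genes differed between mice of the same group far more than other genes. The pooled within-group SD of log2 CPM had a median of 1.504 over the 147 V genes, from 0.45 for the most stable to 3.27, and of 0.31 over the 15852 other genes tested. Among the 3953 other genes whose mean level lay within the middle range of the V genes, the median was 0.40. Of the V genes 140 (95.2%) exceeded the 95th percentile of all genes, 0.80. Kappa genes had a median of 1.59, heavy-chain genes of 1.37 and the 3 lambda genes of 0.78. With 10 or more counts in every library the median was still 1.26 over 61 V genes, beside 0.27 over 13206 genes.

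**Figure D5:**
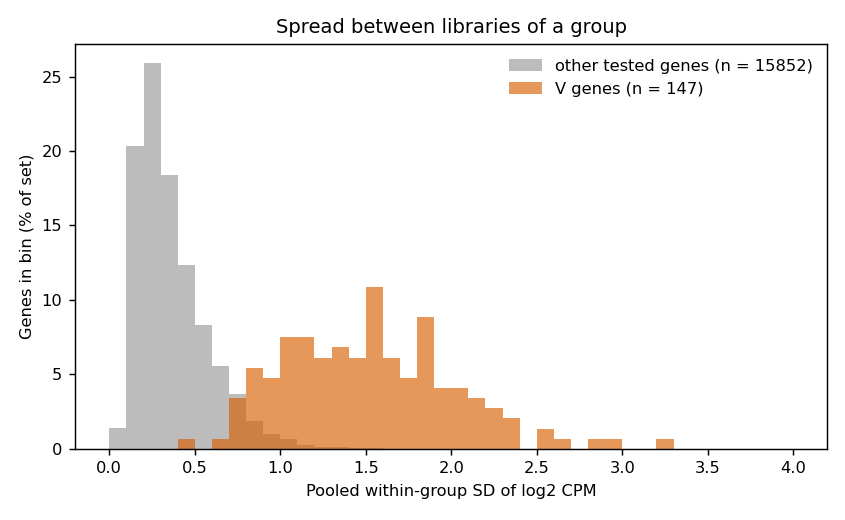
Bars give the percentage of genes (y axis) in each bin of the pooled within-group SD of log2 CPM (x axis), for the 147 tested V genes and the 15852 other tested genes. The V genes centre near their median of 1.504 and the other genes near 0.31, with little overlap.

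This spread often came from 1 mouse. More than 50% of all counts lay in 1 library for 27 of the 150 V genes (18.0%). Among genes that passed the low-count filter this held for 24 of the 147 V genes (16.3%) and for 10 of the 15852 others (0.0631%). The library was a control for 3 of the 27, hypertension for 6, atherosclerosis for 7 and MI for 11. Among the more abundant of them, Igkv4-63 had 85.4% of 6980 counts in MI 4, Igkv8-21 had 81.8% of 16106 in atherosclerosis 3, Igkv12-41 had 73.3% of 7674 in MI 3 and Igkv3-2 had 71.1% of 13499 in MI 4. Without their highest library 16 of the 150 genes fall under 120 counts. At the other end, 129 genes had counts in every library and 21 had 0 in at least 1.

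Position along the locus was described with the annotated genes of each locus in 3 groups of like size. The 38 heavy-chain genes nearest the D segments (Ighv5-2 to Ighv3-5) took 53.1%, 64.4% and 68.4% of heavy-chain V counts in controls and 45.3%, 43.8% and 17.4% in MI, below every control. In hypertension they took 28.5%, 51.5% and 77.1% and in atherosclerosis 73.3%, 76.5% and 33.9%, with overlap. The farthest 38 genes took 14.0% ± 0.39 in controls and 17.1% ± 10.8 in atherosclerosis.

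In the kappa locus the 34 genes nearest the J segments (Igkv3-1 to Igkv5-39) took 38.1%, 35.0% and 38.6% of kappa V counts in controls, 40.7%, 42.2% and 45.6% in hypertension and 53.0%, 70.1% and 45.7% in atherosclerosis. Both groups lay above all controls, and the 33 farthest genes lay below them, at 35.4% ± 5.60 in controls, 23.5% ± 5.07 in hypertension and 19.5% ± 4.64 in atherosclerosis. MI overlapped, with 34.5%, 33.1% and 55.2% for the nearest genes. Kappa V genes occur in both orientations, those opposite to the J segments joining by inversion of the DNA between. The 51 genes on the minus strand, opposite to Igkc, took 76.3% of kappa V counts on average, and the 32 on the plus strand took 23.7%.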

How the data were processed

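Raw counts by Ensembl gene were deposited, made by the authors from single-end reads of 50 bases with STAR 2.7.3a (GeneCounts) on GRCm38.p6 with Ensembl 98. Which strand column was taken is not given in the sources used here, and whether it bears on low markers such as Mzb1 and Cdh5 or on genes that overlap others was not tested. STAR counts reads placed at 1 position only, so reads from windows shared between V genes are not counted. Genes were annotated with GENCODE M21 (55240 of 55421 matched, and 181 did not). All 12 columns were used.

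In R 4.3.3 with edgeR 4.0.16, genes were filtered (filterByExpr), scaled (TMM) and fitted with 1 coefficient per group over 12 libraries (8 residual degrees of freedom, 15999 genes). Hypertension, atherosclerosis and MI were each set against controls by the two-sided quasi-likelihood test with Benjamini-Hochberg adjustment. Genes were called at an adjusted p under 0.05. The same fit gave differences between disease groups. The test was also run on counts simulated from the means and spread of this fit. Gene CPM use TMM-scaled library sizes, sums use total counts, and log2 CPM a prior count of 2. Shares are of the counts on the 150 genes. Sums, shares and families got no test. The replicates are separate mice.

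The V genes and gene lists were chosen with earlier results of these data known. Named are the 10 genes of highest mean share, those called or among the 3 smallest p per comparison, the leading gene of each library, B-1 pairs, Ighv5-2, genes at the threshold and lambda genes. Others, such as the dominated genes and the leading heavy-chain genes, were chosen after their values were seen. Intervals are 95% Wilson, and the floor is 3 counts (0.119 to 0.176 CPM). Alternatives were the likelihood-ratio test, DESeq2 1.42.0, RLE factors, other filters and count minimums, 2 groups only, a replicate block, scaling without immunoglobulin genes, thinning and leaving out each library.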

Additional observations from a re-analysis of the deposited data

Results flagged for a closer look

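Ighv11-2 differed between disease groups. In the same quasi-likelihood fit its log2 level in atherosclerosis minus MI was -2.81 ± 0.48 (SE, adjusted p = 0.0344, edgeR with Benjamini-Hochberg adjustment), and all 3 atherosclerosis libraries lay below all 3 MI libraries. Control levels do not enter this difference, but the controls entered the filter, the scaling and the shared spread. It also uses the same 3 atherosclerosis libraries as the comparison with controls. Against hypertension the difference was -2.91 ± 0.48 (adjusted p = 0.0537). For Igkv14-126 the differences were -1.97 ± 0.46 against MI (adjusted p = 0.0976) and -1.66 ± 0.46 against hypertension (adjusted p = 0.422), neither past the threshold.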

How the results depend on the processing

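The number of V genes called in atherosclerosis, 2 as reported, was 7 with edgeR's likelihood-ratio test, 4 with DESeq2, 83 with no filter beyond 1 count, 1 with only the 2 groups compared and 0 with the replicate block. Leaving out 1 library gave 0 to 5, with 0 without control 2 or control 3 and 5 without atherosclerosis 2. In hypertension, 0 as reported, the number was 58 with no filter. In MI, 0 as reported, it was 1 with the likelihood-ratio test, 1 with DESeq2, 62 with no filter, 1 with only the 2 groups compared and 0 to 1 when 1 library was left out (1 without atherosclerosis 2), the 1 gene being Igkv8-27 each time. The cause of these differences was not tested. Ighv11-2 kept its direction in 20 of 20 alternatives and its call in 15 (adjusted p = 0.206 at most), and Igkv14-126 kept its call in 9 of 20 (adjusted p = 0.317 at most). With the replicate block their adjusted p were 0.0546 and 0.0633. The replicate numbers were not treated as pairing, since 5 of 18 same-number pairs correlated above 0.1 (range -0.28 to 0.30) and 4 of 12 libraries matched their own number best. No log2 fold change of a named gene and no called value changed sign. Among differences from controls that overlap, 3 changed sign when 1 library was left out. The V sum in hypertension minus controls was 18.7 CPM, and -203 without hypertension 2, -25.4 without hypertension 3 and -201 without control 4. The kappa share in hypertension minus controls was 4.58 percentage points, and -2.55 without control 2. The effective number in MI minus controls was -6.91, and 0.40 without MI 4. The V sums, kappa shares, B-1 shares, effective numbers and the within-group spread moved by less than 1 SD between replicates under the alternatives run for each. Thinning each library to 19955 V counts gave effective numbers of 37.3 to 47.1 in controls and 26.8 to 36.7 in atherosclerosis. With 3 mice per group, the large spread between mice limits what the test of a single V gene can call.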

Other observations

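The plasmacytoid dendritic list (Siglech, Bst2, Tcf4, Ccr9 and Ly6d) summed to 287 to 324 CPM in controls and 379 to 436 in atherosclerosis. It summed to 267 to 284 CPM in hypertension and 158 to 268 in MI. The sum was above all controls in atherosclerosis and below them in hypertension and MI. Its largest part in atherosclerosis was Tcf4, at 145 to 204 CPM. Of the 5 genes, 4 had a log2 fold change above 0 in atherosclerosis, and Ly6d was below 0. None of the 5 passed the test in any comparison. The IgG constant gene Ighg1 was at 9.19, 89.6 and 75.45 CPM in controls and 18.1, 12.7 and 9.52 CPM in atherosclerosis. Ighg3 was at 5.44, 30.8 and 24.3 CPM in controls and 29.5, 61.5 and 132 CPM in hypertension. It was at 2.31, 77.2 and 128 CPM in atherosclerosis and 40.9, 59.0 and 85.4 CPM in MI. Only in MI did all libraries exceed all controls for Ighg3. Ighd, the constant gene of IgD, which naive B cells carry, was at 16.99 to 20.99 CPM in controls and 10.7 to 16.4 CPM in atherosclerosis. The 158 annotated V pseudogenes summed to 4.46 to 14.6 CPM per library.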
